A study of Mus musculus with 2 samples.

Results

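Neuropeptides are signaling peptides that neurons and endocrine cells cut from longer precursor proteins inside dense-core vesicles, the storage organelles from which they are released. Secretogranins are acidic proteins packed into the same vesicles. Most precursors are cut at pairs of basic residues by prohormone convertases, trimmed by a carboxypeptidase and often amidated, and the finished peptides act through G protein-coupled receptors. In the developing forebrain, somatostatin and neuropeptide Y mark subsets of GABA interneurons.

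The 10 genes described here are the rows of the expression table whose symbol is Sst, Npy, Tac1, Penk, Pnoc, Cck, Cartpt, Gal, Nts or Scg2, out of 45777 genes in all. All 10 symbols were found, each as 1 protein-coding row. Teratomas were formed by subcutaneous inoculation of mouse embryonic stem cells (ESCs) into BALB/c-nu mice, a nude strain without a normal T cell compartment, and were harvested at 14 days. E14, a wild-type ESC line, gave 1 library. The other came from E14-Sox2TA/WT, a clone of E14 edited with CRISPR/Cas9 so that 1 of its Sox2 alleles encodes T258A. The age of the mice is not given in the sources used here, and whether each library is 1 teratoma or a pool is not stated, with 3 mice used for each cell line. The question was how transcripts of the teratoma differ when Sox2 cannot be O-GlcNAcylated at this residue of 1 allele. With 1 edited clone set against its parent line, the mutation and other differences of the clone cannot be told apart.

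With 1 library per group there is no replicate check, and no p-value is given for any difference. Reads on genes numbered 50529171 for E14 and 49030281 for E14-Sox2TA/WT, and values are given in this order throughout. Mitochondrial genes held 5.17% and 9.70% of the TPM, a level scaled for transcript length and for the library's sum. Sox2 itself had 14585 and 8623 reads, and its alleles are not separated in the table. Intervals in parentheses are 95% intervals of the read counts and cover counting error only. In bulk tissue, fewer cells of a type and less RNA per cell cannot be told apart.

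Short windows of promoter are shown first, since they hold an element, one of 4 motifs searched, that was found in more than 1 of these genes. The RefSeq promoter table for GRCm38.p6 matched 8 of the 10 genes. Penk and Pnoc were not matched. The cAMP response element, TGACGTCA, the binding sequence of CREB family factors, was searched in the 250 bases before the annotated start, where its palindrome reads alike on both strands. It is printed in capitals within 30 bases of the gene's own strand, 5′ to 3′.
Sst: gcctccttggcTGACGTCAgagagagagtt
Scg2: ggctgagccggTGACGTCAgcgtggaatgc
Cartpt: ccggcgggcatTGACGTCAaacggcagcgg
The windows lie on the minus strand at chr16:23890874-23890903 for Sst, chr1:79440076-79440105 for Scg2 and chr13:99900777-99900806 for Cartpt. The element begins 48 bases before the start of Sst, 68 before that of Scg2 and 112 before that of Cartpt, as the promoter annotation places these starts. For Sst and Cartpt the windows lie inside the RefSeq span of the gene given below, so those starts are not the outermost ones. The window of Scg2 lies outside its span. It was found in 3 of 8 promoters here and in 1.55% of 32851 promoters of the same length in the table. Its core TGACG, which the full element also contains, was found on either strand in 6 of 8, adding Tac1, Cck and Nts, and in 17.8% of all promoters. TATAAA was found in 0 of 8 and in 12.4% of all, and CATTGT, a core that Sox factors recognize, in 0 of 8 and in 10.7% of all. These matches describe letters in a window and are not measurements of binding.

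Coding sequence is shown for the products of Sst and Penk, a pair whose levels went apart between the libraries. The stretch of Sst from its only pair of basic codons, in capitals, to the last codon before the stop spans 14 further codons, which encode the short form of somatostatin. It lies in an exon of the minus strand at chr16:23889732-23889779 of GRCm38.
Sst: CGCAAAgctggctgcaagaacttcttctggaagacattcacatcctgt
Penk holds 12 pairs of basic codons in 268 codons, and 5 stretches of exactly 5 codons lie between such pairs. They encode enkephalins of 5 residues, of which 4 end in atg, for methionine, and 1 ends in ctg, for leucine. Longer products were not searched for. All lie on the minus strand between 4133935 and 4134354 of chromosome 4, with the flanking basic codons in capitals.
Penk stretch from codon 98: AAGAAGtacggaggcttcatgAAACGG
Penk stretch from codon 105: AAACGGtacggaggcttcatgAAGAAG
Penk stretch from codon 134: AAGAGGtatggcggcttcatgAAGAAG
Penk stretch from codon 209: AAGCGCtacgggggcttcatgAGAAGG
Penk stretch from codon 229: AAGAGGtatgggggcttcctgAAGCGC

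Among the 10 genes, Sst, Scg2 and Pnoc were lower in the E14-Sox2TA/WT library, by 4.87-, 4.38- and 8.76-fold in TPM, while the ratio of Penk was 1.05. Genes were called by the rule in the study's methods, a fold change above 2 where either library has a TPM of 10 or more. Only 4 of the 10 genes reached that level, and 3 of them, Sst, Scg2 and Pnoc, were lower by the rule, while 0 were higher. Across all 11578 genes tested, 18.7% were lower and 10.8% higher by the same rule. Of all genes past the rule, 63.4% were lower on TPM, against 51.1% on FPKM and 50.9% on reads scaled by library totals. At a TPM of at least 1, which all 10 genes reached, Nts was lower as well and Gal was higher, so that 4 were lower and 1 higher. The background at that level was 18.9% lower and 19.3% higher of 18558 genes.

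**Figure D1:**
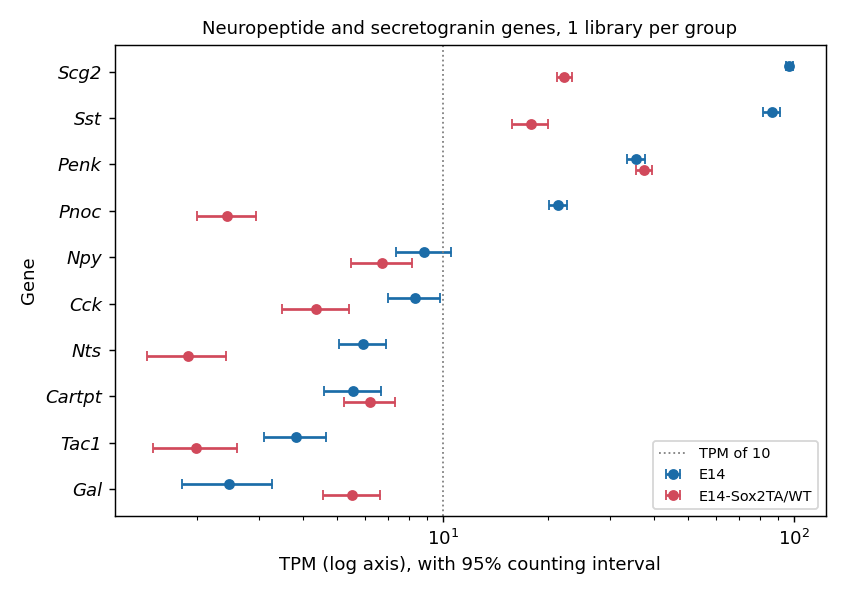
TPM of each of the 10 genes on a log axis in the E14 (blue) and E14-Sox2TA/WT (red) teratoma libraries, with bars for the 95% counting interval and a dotted line at a TPM of 10. Scg2, Sst, Pnoc, Cck, Nts and Tac1 have red points left of blue ones with bars apart, Gal has them the other way round, and the bars of Penk, Cartpt and Npy overlap.

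Sst, on chromosome 16 from 23889573 to 23891342 of GRCm38, encodes the precursor of somatostatin, an inhibitory peptide of interneurons and of endocrine cells. It had 1249 and 290 reads, at a TPM of 86.6 and 17.8. Its TPM was 4.87-fold lower in E14-Sox2TA/WT, and its reads scaled by library totals were 4.18-fold lower (3.68 to 4.77).

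Scg2, on chromosome 1 from 79434366 to 79440026, encodes secretogranin II, a vesicle protein that is itself cut into secretoneurin. Its reads numbered 6230 and 1583 and its TPM was 97.2 and 22.2, a level 4.38-fold lower in E14-Sox2TA/WT. In reads the fold was 3.82 (3.61 to 4.04). It was the most abundant of the 10 genes in the E14 library.

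Pnoc, on chromosome 14 from 65400673 to 65425564, encodes the precursor of nociceptin, a peptide related to the opioids that acts on its own receptor. It had 1056 and 106 reads and a TPM of 21.3 and 2.43, the largest difference among the 10 genes. Its TPM was 8.76-fold lower in the E14-Sox2TA/WT library and its reads 9.67-fold lower (7.91 to 11.9). The transcript length implied by its reads and FPKM was 2286 nt and 1805 nt, a ratio of 0.790, so the fold in TPM and the fold in reads are not on the same length. Over 14292 genes with at least 100 reads in both libraries the median of this ratio was 1.003, and 157 of them, or 1.10%, had a lower ratio than Pnoc. For the other 9 peptide genes it lay between 0.970 and 1.02. The table gives 4 RefSeq transcripts for Pnoc, and which of them the reads came from was not tested.

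Penk, on chromosome 4 from 4133536 to 4138815, encodes proenkephalin, the source of the enkephalins printed above. It had 1109 and 1308 reads at a TPM of 35.5 and 37.5. The ratio of E14-Sox2TA/WT to E14 was 1.05 in TPM and 1.22 (1.12 to 1.32) in reads, so its distance from 1 depended on the scaling more than on counting error. Penk was the third most abundant of the 10 genes in the E14 library and the most abundant in the E14-Sox2TA/WT library.

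The other 6 genes stayed under a TPM of 10 in both libraries. Nts, on chromosome 10 from 102481756 to 102490418, encodes the precursor of neurotensin, a peptide of brain and gut. It had 169 and 61 reads, at a TPM of 5.92 and 1.88, which is 3.15-fold lower, and 2.69-fold lower in reads (1.99 to 3.66).

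Cck, on chromosome 9 from 121489824 to 121495694, encodes cholecystokinin, a peptide of cortical neurons and of the gut. It had 139 and 83 reads at a TPM of 8.32 and 4.37, 1.90-fold lower, or 1.63-fold in reads (1.23 to 2.16). Tac1, on chromosome 6 from 7555061 to 7562978, encodes the precursor of substance P and neurokinin A. It had 96 and 54 reads at a TPM of 3.81 and 1.98, 1.92-fold lower, or 1.73-fold in reads (1.22 to 2.45). Both lay short of a 2-fold difference in TPM, with intervals of the reads that did not include 1.

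Npy, on chromosome 6 from 49822710 to 49829507, encodes neuropeptide Y, found in interneurons, hypothalamic neurons and sympathetic neurons. It had 121 and 103 reads at a TPM of 8.85 and 6.73, and in reads it was 1.14-fold lower with an interval from 0.869 to 1.497 that includes no difference. Cartpt, on chromosome 13 from 99898483 to 99910179, encodes the precursor of the CART peptides. It had 115 and 143 reads at a TPM of 5.56 and 6.20, and in reads it was 1.28-fold higher with an interval from 0.996 to 1.65. For neither gene was a difference detectable at this depth.

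Gal, on chromosome 19 from 3409915 to 3414544, encodes galanin, a peptide of hypothalamic, peripheral and gut neurons. It had 48 and 118 reads, at a TPM of 2.46 and 5.53. It was 2.25-fold higher in TPM and 2.53-fold higher in reads (1.80 to 3.62), and it was the only one of the 10 genes that was higher by over 2-fold.

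Across the 10 genes, the interval of the read ratio lay wholly below 1 for 6 and wholly above 1 for 2, where the background over the 18558 genes was 37.8% below and 49.1% above. The median log2 ratio of E14-Sox2TA/WT to E14, with 1 added to each TPM, was -0.74, within a range from -2.70 to 0.92. The median over those 18558 genes was -0.06 on TPM and 0.12 on FPKM and on library totals, so these scalings differ in where no change lies. The direction of each of the 10 genes was the same under TPM, FPKM, library totals, TMM factors, median-of-ratios size factors and TPM without mitochondrial genes.

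**Figure D2:**
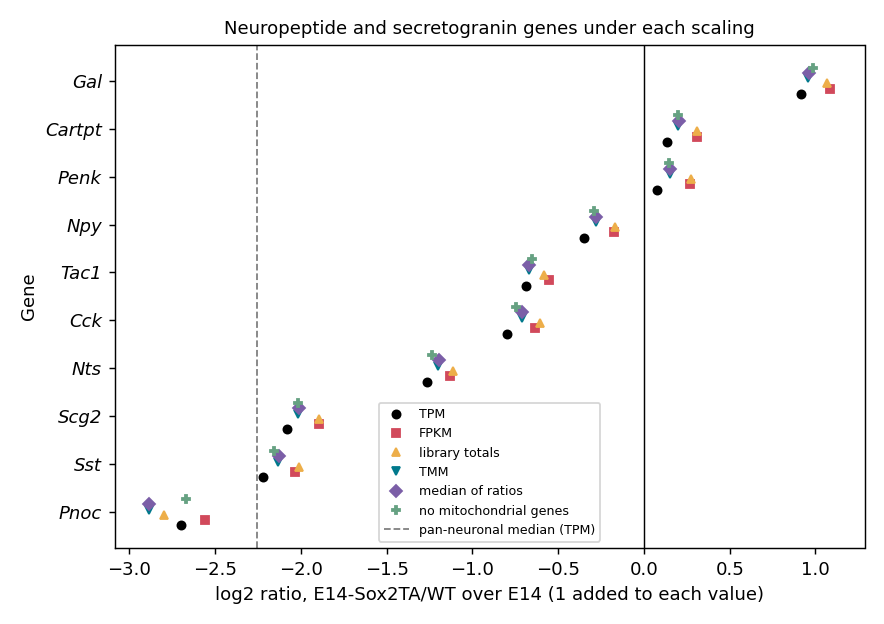
The log2 ratio of E14-Sox2TA/WT to E14, with 1 added to each value, for each of the 10 genes under 6 scalings, with a solid line at 0 and a dashed line at the median of the pan-neuronal markers on TPM. Each gene stays on its side of 0 under all 6, and Pnoc, Sst and Scg2 lie near the dashed line while the other 7 lie to its right.

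The order of the levels differed between the libraries. In the E14 library it ran from Scg2 and Sst through Penk, Pnoc, Npy, Cck, Nts, Cartpt and Tac1 to Gal. The counting intervals of neighbours in this order were apart for the first 5 genes and overlapped for 4 of the 9 neighboring pairs, Npy with Cck, Nts with Cartpt, Cartpt with Tac1 and Tac1 with Gal. In the E14-Sox2TA/WT library it ran from Penk through Scg2, Sst, Npy, Cartpt, Gal, Cck, Pnoc and Tac1 to Nts, and 5 of the 9 neighboring pairs overlapped. Pnoc went from the fourth place to the eighth and Gal from the last to the sixth.

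Together the 10 genes summed to a TPM of 276 and 107, which is 2.59-fold lower. Scg2, Sst, Penk and Pnoc made up 87.3% and 74.96% of these sums. Without them the remaining 6 genes summed to 34.9 and 26.7, 1.31-fold lower. Sst alone went from 31.4% to 16.7% of the summed TPM, and Penk from 12.9% to 35.2%.

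The 10 genes lie on 9 chromosomes, and none lies on chromosome 8, 15 or Y. There the median log2 ratios of all genes with a TPM of at least 1 were -0.48, 0.35 and -2.94, the last over 8 genes. Reads of the graft and of the host mouse were not separated. Genes within 1 Mb on either side had median log2 ratios from -0.86 around Pnoc, over 23 genes, to 0.77 around Sst, over 19 genes. No row with reads overlapped any of the 10 genes.

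The secretogranin and chromogranin family to which Scg2 belongs was lower as well. By the 2-fold rule on TPM, 7 of 7 granin genes, Scg2 included, were lower, with log2 ratios from -2.81 to -0.99 around a median of -2.28. Chgb, a chromogranin of neuroendocrine vesicles, had a TPM of 169 and 34.1. Scg5, which encodes the chaperone 7B2 of the convertase PC2, had 133 and 18.2 and was 7.33-fold lower. Scg3, which helps sort granins into vesicles, had 119 and 21.6, and Pcsk1n, which encodes an inhibitor of the convertase PC1/3, had 104 and 17.6. Scg2 at -2.08 was thus close to the middle of its family, and the smallest difference was that of Vgf, at a TPM of 12.4 and 5.75. Vgf was 2.15-fold lower in TPM but 1.73-fold in reads, and on FPKM, library totals, TMM and median-of-ratios factors 6 of 7 granins were past the rule.

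**Figure D3:**
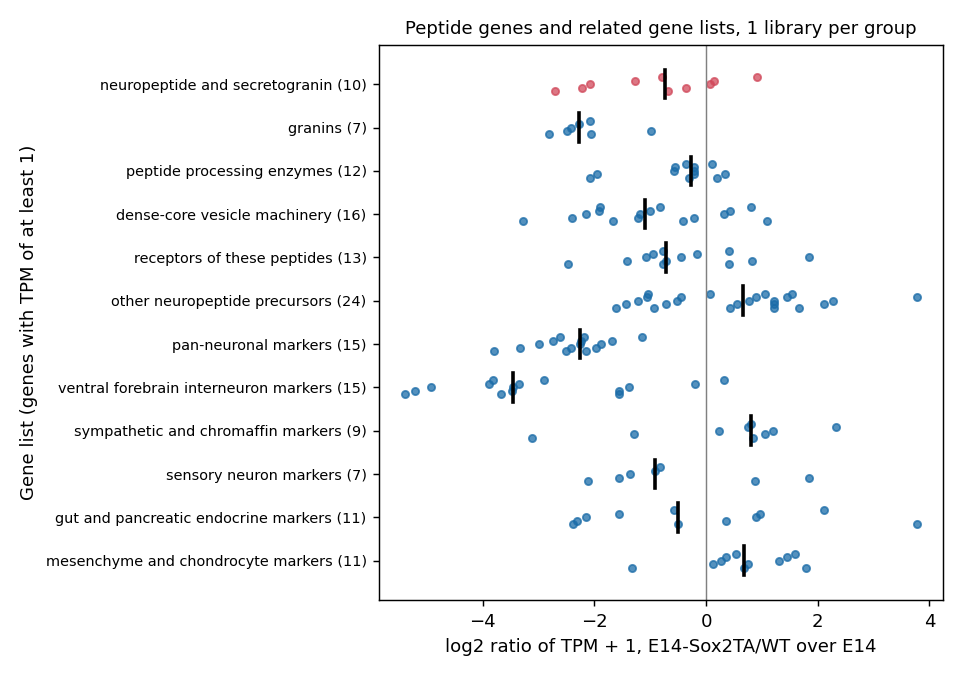
The log2 ratio of TPM + 1 of E14-Sox2TA/WT to E14 for each gene that reached a TPM of 1 in the 10 peptide genes (red) and in 11 related lists (blue), with the number of genes in parentheses and a black bar at each median. All granins but Vgf lie between -2.81 and -2.06, near the median of the pan-neuronal markers, the 10 peptide genes spread from -2.70 to 0.92, and other neuropeptide precursors reach 3.78.

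Among 12 enzymes that process peptide precursors, 2 of the 7 tested were lower and 0 higher, with a median log2 ratio of -0.26. Cpe, the carboxypeptidase that trims the basic residues left after cutting, had a TPM of 625 and 161, and lies on chromosome 8. Pcsk2, the convertase PC2, had 13.5 and 2.44 and was 5.54-fold lower. Pam, the amidating enzyme, had 67.7 and 45.9, and Cpd, a carboxypeptidase found in many tissues, had 28.8 and 22.1. Pcsk5, a convertase of many tissues, had 7.42 and 4.67. Pcsk1, the other convertase of neuroendocrine cells, had 119 and 170 reads, at a TPM of 0.98 and 1.26.

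Of 16 genes for the formation and release of dense-core vesicles, 12 were tested, 9 were lower and 0 were higher, and the log2 ratios had a median of -1.10. Rab3a, a vesicle GTPase on chromosome 8, had a TPM of 197 and 19.5, 10.1-fold lower. Cplx2, a complexin of release, had 62.7 and 26.4, and Syt4, a synaptotagmin of dense-core vesicles, had 36.3 and 7.37. Unc13a, a vesicle priming factor on chromosome 8, had 19.1 and 2.81.

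Receptors of these peptides were mostly low. Of 25 receptor genes, 13 reached a TPM of 1, 2 were tested, and both were lower. Their median log2 ratio was -0.72. Oprl1, the receptor of the Pnoc product nociceptin, had 2020 and 351 reads at a TPM of 27.7 and 4.19, 6.61-fold lower. Sort1, a sorting receptor that also binds neurotensin, had a TPM of 45.7 and 21.1, 2.16-fold lower. Sstr1, a somatostatin receptor, had 357 and 91 reads at a TPM of 3.81 and 0.800, and Sstr2 had 5.72 and 3.08. Tacr1, the substance P receptor, had 9.66 and 6.84. Galr1, a galanin receptor, had 0 and 201 reads, and so was at least 69.0-fold higher against a floor of 3 reads per library. Galr2 had 21 and 81 reads, so that both detected galanin receptors and Gal itself were higher in that library, whereas Galr3 had 0 reads in both. Other peptides and receptors did not go together. Cckar, a cholecystokinin receptor, had 250 and 392 reads while Cck was lower. Beside the ratio of 1.05 for Penk, the opioid receptor genes Oprm1, Oprd1 and Oprk1 had 41 and 0, 25 and 47, and 74 and 153 reads.

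Peptide precursors outside the 10 genes went both ways. Of 47 such genes, 24 reached a TPM of 1, and 9 were tested, of which 2 were lower and 6 higher. The median log2 ratio was 0.66. Trh, the precursor of thyrotropin-releasing hormone, was the most abundant peptide precursor of both libraries, with 7195 and 21970 reads at a TPM of 216 and 591, 2.73-fold higher. Nmb, neuromedin B, had a TPM of 7.53 and 40.1, and Sct, the gut hormone secretin, had 7 and 277 reads at a TPM of 0.526 and 19.9. Ghrl, the precursor of ghrelin, had 0 and 52 reads, at least 17.9-fold higher against the same floor. Cbln1, a secreted synaptic organizer on chromosome 8, had 44.6 and 13.9, and Nucb2, the precursor of nesfatin, had 45.0 and 21.3. Of the precursors higher by the rule, Pdyn, Pomc and Calca had a TPM of 3.08 and 11.9, of 5.29 and 13.7 and of 8.25 and 20.5.

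**Figure D4:**
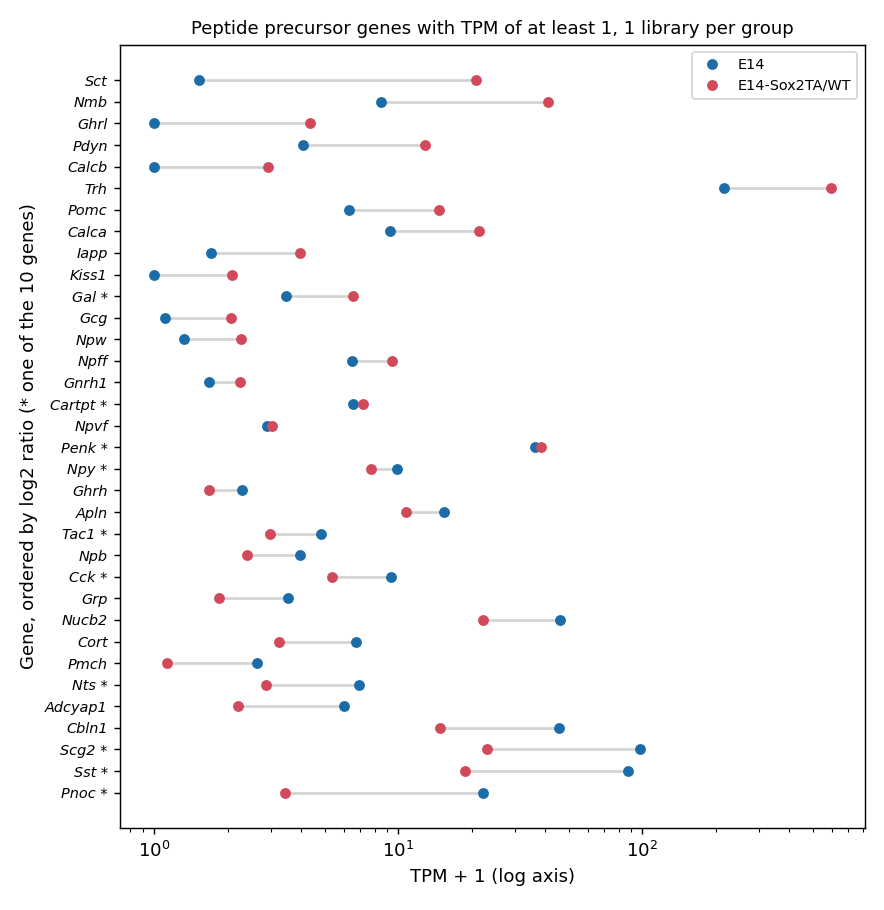
TPM + 1 on a log axis of the 34 peptide genes that reached a TPM of 1, ordered by their log2 ratio, in the E14 (blue) and E14-Sox2TA/WT (red) teratoma libraries. Stars mark the 10 genes described here, of which Pnoc, Sst and Scg2 stand at the bottom and Gal stands among the genes that were higher, while Trh has the highest level in both libraries.

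Markers of cell types that can hold these peptides also differed between the libraries, and their part in the values above was not tested. By the rule on TPM, 15 of 15 pan-neuronal markers were lower, and 14 were on FPKM and on library totals, where Elavl4, 1.97-fold lower in reads, was not past it. The list was at a summed TPM of 4256 and 682 and a median log2 ratio of -2.26. Tubb3, a neuronal tubulin on chromosome 8, had a TPM of 1722 and 170, Gap43, a growth cone protein, had 474 and 106, and Stmn2, a neuronal stathmin, had 451 and 121. Mapt, which encodes tau, had 265 and 18.2, and Syt1, the calcium sensor of release, had 50.8 and 5.53. Set against the pan-neuronal median, Sst stood at 0.03, Scg2 at 0.17 and Pnoc at -0.45 on the log2 scale. The other 7 peptide genes stood higher, from 0.99 for Nts to 3.17 for Gal, so Pnoc was the only one of the 10 below that median. This place of Pnoc depended on the 1 added to each TPM. With 5 added instead, Pnoc had a log2 ratio of -1.82 and the pan-neuronal median was -2.11, so Pnoc lay above it.

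Markers of ventral forebrain interneurons, the class that includes Sst and Npy cells, were lower too. Of 15 such genes 13 were lower and 0 higher, the median log2 ratio was -3.45, and the summed TPM was 520 and 65.4. Nkx2-1, the patterning factor of the medial ganglionic eminence, had a TPM of 74.2 and 0.789, Dlx1 had 71.9 and 0.969, and Dlx2 had 67.0 and 1.24. None of these markers was at 0 in either library. Sst and Npy, both peptides of this class, had log2 ratios of -2.22 and -0.35.

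Markers of peripheral neurons and endocrine cells were also measured. Of 12 sympathetic and chromaffin markers, 9 reached a TPM of 1 and 2 were tested, of which 1 was lower and 0 higher. The summed TPM of the list was 154 and 98.6. By contrast, 7 of the 9 had a ratio above 1, mostly at low levels, and the median log2 ratio was 0.80. Gata3 had 8.91 and 3.08, Ddc, which makes dopamine and serotonin, had 33.7 and 57.4, and Hand1 had 0 and 207 reads. In the E14 library Dbh, Pnmt and Hand1 were at 0 reads. Of 11 sensory neuron markers in the table, 4 were tested, 3 were lower and 1 higher, and the median log2 ratio was -0.91. Ntrk2 had a TPM of 42.3 and 8.96, Ntrk3 had 24.2 and 7.56, and Prph, a filament of peripheral neurons on chromosome 15, had 5.67 and 23.0. Of the 7 that reached a TPM of 1, 5 had a ratio below 1 and 2 above, Prph and Runx1. Runx1 had 371 and 926 reads. Avil and Scn10a, under a TPM of 1, had 0 and 91 reads and 0 and 10 reads.

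Gut and pancreatic endocrine markers, which overlap the precursor list in genes such as Sct and Ghrl, were 3 lower and 1 higher of 5 tested, at a median of -0.50. Of the 11 with a TPM of at least 1, 6 had a ratio below 1 and 5 above. The latter were Sct, Ghrl, Tph1 (86 and 288 reads), Gcg (3 and 32) and Neurog3 (38 and 66). Nkx2-2, shared with the ventral neural tube, had a TPM of 36.3 and 6.11, Insm1, shared with neuronal progenitors, had 28.8 and 5.69, and Fev, shared with serotonin neurons, had 13.0 and 1.83. Connective tissue and cartilage markers, cells in which Penk can be transcribed, were 3 higher and 1 lower of 9 tested, with a median of 0.68 and a summed TPM of 459 and 1054. Col3a1, a collagen of connective tissue, had 172 and 472, Col1a2 had 71.6 and 249, and Col1a1 had 49.9 and 152. Of the cartilage genes, Sox9, a factor that neural progenitors share, had 44.1 and 16.9 and was the one that was lower. Col2a1, the collagen of cartilage, on chromosome 15, had 58.0 and 74.8 and was not past the rule. Neural and connective tissue markers were thus present in both libraries labelled as teratoma.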

How the data were processed

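The RNA-seq libraries of teratoma from E14 and from E14-Sox2TA/WT cells, 1 each, were analysed. As deposited by the authors, each gene has a raw read count, FPKM (per transcript length and library size) and TPM (rescaled to a fixed sum). The submitters' processing notes name HISAT2 2.1.0 and StringTie 2.1.3b without their roles, and the builds mm10 and hg19; how reads became counts, and whether strand was used, is not given in the sources used here. RefSeq positions for GRCm38.p6, the same build, were matched by gene ID.

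Ratios of the deposited TPM were computed for each gene, with the study's rule as the call. Read counts gave exact Poisson intervals per library and Clopper-Pearson intervals of their ratio at 95%, which cover counting error only. A count of 0 was bounded by 3 reads per library. No test was possible with 1 library per group. The genes and lists were chosen with earlier results of these data known. Lists come from general knowledge, and 1 listed sensory gene was not in the table. Named genes are, per list, the top 3 by TPM and the top 3 by size of log2 ratio, plus a few by role (Vgf, Pcsk1, Sstr2, Galr2, Galr3, Pdyn, Pomc, Calca, Dbh, Pnmt, Elavl4, Sox9, Col2a1) after their values were seen. A gene that this rule would name is not reported here. Coding sequences came from GENCODE M21 transcripts matched by RefSeq identifiers. Alternatives covered the scaling (with edgeR 4.0.16 for TMM), filter, fold, pseudocount and centring. Scripts (Python 3.11.15, scipy 1.17.1) were tested on simulated data.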

Additional observations from a re-analysis of the deposited data

How the results depend on the processing

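No paired analysis was possible because each group has a single library, which also means that no library could be left out. Depth limits Gal, Tac1 and Nts most, at 48 to 169 reads, and intervals of counts say nothing of how tumours vary. Of 277 alternative counts and medians, 233 stayed within 1.5 times the count or within the interval of the median, and 44 did not. For short lists that interval is wide. The median log2 ratio of the peptide genes went from -0.74 to -2.15 when only those with a TPM of at least 10 were kept, and still counted as within it. Another filter tests another number of genes and another fold moves the threshold itself, and for the scalings and the pseudocount the cause was not tested. The counts of the 10 genes lower by the rule stayed between 3 and 4, of 4 or of 10 tested. Over the 11578 genes tested, the lower count went from 1015 above 3-fold to 3742 above 1.5-fold.

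With a TPM of at least 1, 1 of the 10 genes was higher. The lower and higher counts were 6 and 2 of 13 receptors, 7 and 12 of 24 other precursors and 2 and 4 of 9 sympathetic markers. They were 5 and 2 of 7 sensory markers, and 3508 and 3585 of all 18558 genes. The higher counts were 2 of 16 vesicle genes, 4 of 11 endocrine markers and 5 of 11 connective tissue markers. Without a filter, 1 of the 10 genes was higher. The counts were 8 and 5 of 23, 12 and 20 of 42, 2 and 7 of 12, and 5 and 4 of 11 in the same order. For all 29147 genes they were 6015 and 9156. In the last 3 lists 2 of 16, 6 of 14 and 6 of 12 were higher. Above 1.5-fold, 1 of 2 sympathetic and 5 of 9 connective tissue markers were higher. Of all 11578 genes, 3742 were lower and 2109 higher. Above 3-fold, 1 of 2 receptors, 1 of 9 other precursors and 0 of 9 connective tissue markers were lower, and 3 other precursors were higher. Of the same 11578 genes, 1015 were lower and 663 higher. With FPKM and with library totals, 1 receptor and 1 other precursor were lower, and 1 other precursor was lower with median-of-ratios size factors. With a pseudocount of 0.1 the interneuron median was -4.09 beside a pan-neuronal median of -2.49, and with a pseudocount of 5 they were -2.18 and -2.11.

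Of 90 alternative values of single peptide genes, 69 stayed within counting error. Centring on the pan-neuronal median turned the sign of Sst (0.034), Npy (1.90), Tac1 (1.57), Cck (1.46), Nts (0.99) and Scg2 (0.17).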
